A study of Danio rerio with 8 samples.

Results

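For each gene, the change seen in cebp1-/- eosinophils was set against the change seen in cebpb-/- eosinophils. The value described is the cebp1 change (mutant minus wild type, means of log2(TPM + 1)) minus the cebpb change, called the difference of changes below. A positive value means that the gene stood relatively higher in cebp1-/- than in cebpb-/-, each against its own wild type. TPM are read counts corrected for gene length and then set to a total of 1000000 in every library. Of 30838 genes listed, the 4317 that averaged 10 TPM or more over the 4 libraries of each table were taken. At that limit, cherp and fnta were just inside, with lower means of 10.0009 and 10.0023 TPM and differences of changes of 0.60 and -0.75. Scamp1 was just outside, with a lower mean of 9.98 TPM and a difference of -1.76.

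C/EBP proteins are basic leucine zipper transcription factors that bind as dimers and steer myeloid progenitors towards granulocyte and monocyte fates. Cebpb is a family member that is induced in stress-driven myelopoiesis. Zebrafish cebp1, a counterpart of mammalian CEBPE, is known for its part in neutrophil differentiation. Eosinophils are granulocytes with large secretory granules, and they take part in defence against parasites. The comparison asks which transcripts were on opposite sides in the 2 mutants, which moved alike, and which moved in 1 of them.

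The 8 libraries came from eGFP-positive cells sorted out of whole AB strain larvae at 7 days post fertilization (dpf), about 500 cells per library. All carried Tg(eslec:eGFP), in which the promoter of the lectin gene eslec drives the reporter, so the sort selects cells in which that promoter is active. There were 2 libraries each of cebp1-/-, its wild type (cebp1+/+), cebpb-/- and its wild type (cebpb+/+), and replicates were separate pools of larvae. The mutants are germline, so every cell of the larva lacks the gene product, not eosinophils alone. Each mutant has its own wild type in its own table, and the tables were normalized separately. Sequencing depth cannot be read from TPM, and no value below therefore carries a counting error.

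The targeted genes were read first. Cebp1 was listed at 0 in all 8 libraries, so it cannot check the cebp1 labels. Cebpb stood at 531 and 495 TPM in cebp1+/+, 743 and 715 in cebp1-/-, 6360.4 and 5716 in cebpb+/+ and 2928 and 1480.2 in cebpb-/-. Both cebpb-/- libraries were below both of their wild types, and both cebp1-/- libraries were above theirs. Its changes were 0.51 and -1.53, of which the second passed the test (limma adjusted p = 0.0238), and the difference of changes was 2.04 (SE 0.39, limma adjusted p = 0.0328). The 2 wild types, which have the same strain, age and transgene in their labels, stood far apart in level for this gene, and no test was made across tables.

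Eslec, the sorting gene (si:dkeyp-75b4.10 in the tables), was among the most abundant transcripts, with 11840.1 and 14618 TPM in cebp1+/+, 20719.5 and 24085 in cebp1-/-, 36138 and 31898 in cebpb+/+ and 11658 and 17653 in cebpb-/-. It was higher in both cebp1-/- libraries and lower in both cebpb-/- libraries than in the matching wild types. Its difference of changes was 2.01 (SE 0.27, limma adjusted p = 0.0148). The eslec promoter drives the reporter of the sort, so its level is not independent of how the cells were chosen. Lyz, a neutrophil lysozyme, did not exceed 1.47 TPM, and the macrophage gene mpeg1.1 was listed at 0 throughout. Coro1a, a leukocyte actin-binding gene, did not exceed 0.716 TPM. Coro1a is known from leukocytes in general, so low values of single genes do not show that a cell type is absent from these libraries.

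The tables differed in the genes they detected. Between 87.2% and 88.1% of genes listed were above 0 in the 4 libraries of the cebp1 table, against 39.3% to 50.3% in the cebpb table. The mitochondrial ribosomal RNA mt-rnr2 took 20.5% to 26.8% of TPM in the first and 3.25% to 4.53% in the second. The log2 values of the replicate pairs correlated across the 4317 genes at 0.879 in cebp1+/+, 0.947 in cebp1-/-, 0.881 in cebpb+/+ and 0.698 in cebpb-/-. Across all genes of the fit, the median residual SD (log2) was 0.402 for the cebp1 table, against 0.886 for the cebpb table.

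Most genes had changes of unlike sign. As deposited, 1928 of the 4317 genes were lower in cebp1-/- and higher in cebpb-/-, and 779 were higher in cebp1-/- and lower in cebpb-/-. A further 785 were higher in both and 825 lower in both, so that 62.7% had unlike signs. The median change was -0.28 in cebp1-/- and 0.35 in cebpb-/-, and the median difference of changes was -0.56. Across genes the 2 changes correlated at -0.287 (Pearson, 4317 genes, a description: genes of 1 library share its composition and are not independent). Among the 875 genes averaging 50 TPM or more in both tables, 284 were higher in cebp1-/- and lower in cebpb-/- and 247 the other way round, with a median difference of changes of 0.20.

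The choice of scaling moved the medians and the split between the 2 directions. The share of unlike signs stayed at 60.7% to 62.7%, and the correlation at -0.287 to -0.300. Scaling within each table on genes averaging 50 TPM or more shifted the difference of changes by about 0.23, through -0.08 in the cebp1 change and -0.31 in the cebpb change. Genes with values near 0 shifted by other amounts, because 1 is added before the log. The median then stood at -0.34, with 892 genes higher in cebp1-/- and lower in cebpb-/- and 1729 the other way round. Scaling on genes averaging 1 TPM or more shifted it by 1.62, and the median turned positive, at 0.99, with 2146 and 495 genes. Scaling therefore decides how many genes lie on each side. Named genes are given below as deposited, with a scaled value wherever the sign of the difference of changes turns. Single changes near 0 can turn sign as well, and this is not given for each gene. With scaling on genes of at least 50 TPM the cebpb changes of gata2a, xbp1 and osmr went from 0.05, 0.07 and 0.06 to -0.26, -0.24 and -0.25.

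Genes of different level also had different medians. Taken by the lower of its 2 table means, the median was -0.99 in the 2006 genes of 10 to 20 TPM, -0.56 in the 1436 genes of 20 to 50 TPM and -0.19 in the 428 genes of 50 to 100 TPM. It was 0.07 in 204 genes of 100 to 200 TPM and 0.45 in 103 genes of 200 to 500 TPM. In the 42 genes of 500 to 1000 TPM it was 0.80, and in the 98 genes above that it was 0.67. In the lowest group the cebp1 change had a median of -0.47 and the cebpb change one of 0.55. In the genes above 1000 TPM these were 0.08 and -0.50. The order from low to high level held up to 1000 TPM under all 3 scalings.

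**Figure D1:**
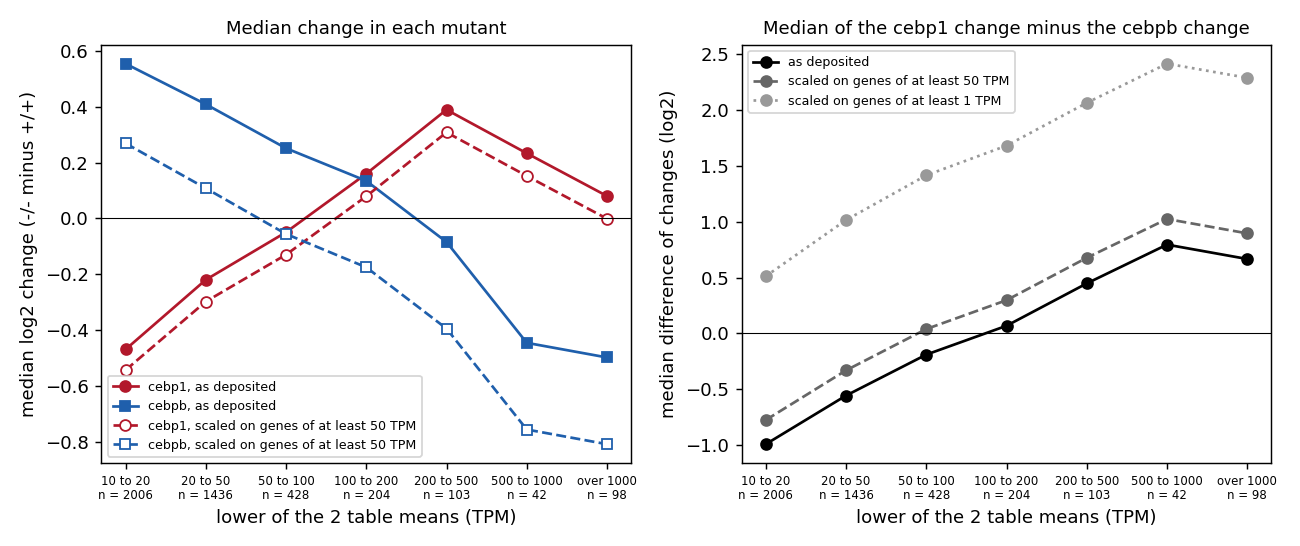
Median change in each mutant (left; circles cebp1, squares cebpb; filled as deposited, open scaled on genes of at least 50 TPM) and median difference of changes (right; 3 scalings), in log2, for genes grouped by the lower of the 2 table means in TPM, with n genes under each group. As deposited the median difference runs from -0.99 in genes of 10 to 20 TPM to 0.80 in genes of 500 to 1000 TPM.

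A linear model over all 8 libraries (limma, 11536 genes averaging 1 TPM or more in each table, two-sided, adjusted by Benjamini-Hochberg over all of them) tested the difference of changes. Of the 4317 genes, 98 had a positive difference past an adjusted p of 0.05 and 286 a negative one, against 0.919% and 3.53% of all genes tested; these were 2.27% and 6.62% of the 4317, the shares that counts of listed genes below are set against. Among the 875 genes of at least 50 TPM the counts were 74 and 72. All 98 positive calls stayed after scaling on genes of at least 50 TPM, as did 216 of the 286 negative ones. That scaling shifts the difference of changes upward by about 0.23. It thereby favours positive calls, so these counts do not rank the 2 directions. The share of positive calls was 25.5% as deposited, 37.2% with that scaling and 92.4% with scaling on genes of at least 1 TPM, where 600 were positive and 49 negative. The genes called negative mostly had the same sign there, with 5 of the 286 turned. Of the 4317 genes, 1258 averaged below 10 TPM in 1 or more of the 4 groups and were admitted through the other group of that table, among them 20 of the 98 and 128 of the 286. Such a gene had to differ in that table, so those named below have their values given without a test.

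The number of calls rests on single libraries. Without cebpb+/+ replicate 1 the calls were 0 positive and 2 negative, where 304 and 916 genes had an unadjusted p below 0.05. They were 2 and 2 without cebp1-/- replicate 1, 4 and 5 without cebp1+/+ replicate 2, 12 and 19 without cebp1+/+ replicate 1, 12 and 28 without cebp1-/- replicate 2, and 20 and 108 without cebpb+/+ replicate 2. Without cebpb-/- replicate 1 they were 368 and 516, and without cebpb-/- replicate 2 they were 329 and 685. Of the 111 genes chosen for naming by rule, 52 were called, and 52 remained without either cebpb-/- library, 24 without cebpb+/+ replicate 2, 21 without cebp1-/- replicate 2, 15 without cebp1+/+ replicate 1, 5 without cebp1+/+ replicate 2, 2 without cebp1-/- replicate 1 and 0 without cebpb+/+ replicate 1. None of the 98 or the 286 changed sign in these fits. With 2 libraries a group, a fit that leaves 1 out has a lone library in that group, which is assumed to vary like the others.

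The single effects gave fewer calls for cebp1. Of the 4317 genes, 4 were called higher and 2 lower in cebp1-/- (0.0927% and 0.0463% of the 4317, against 0.0347% and 0.0173% of all genes tested). In cebpb-/- 315 were called higher and 102 lower (7.3% and 2.36% of the 4317, against 4.27% and 1.93% of all genes tested). None of the 6 cebp1 calls was left after scaling on genes of at least 50 TPM. The calls trade places when each table is given its own weight: 168 and 251 genes for cebp1, 3 and 6 for cebpb. The number of calls per mutation is thus no measure of which mutant changed more. Actb2, a cytoplasmic actin, had 8425 and 9854 TPM in cebp1+/+ against 24899.6 and 20211 in cebp1-/-, and 13662 and 12868 TPM in cebpb+/+ against 14047 and 12524 in cebpb-/-. Its cebp1 change was 1.30 (limma adjusted p = 0.048), its cebpb change was 0.00, and the difference of changes was 1.30 (SE 0.18, limma adjusted p = 0.0149).

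Genes were also sorted by size. A gene counts as moved where group means differ by at least 1 (log2) with the mutant pair wholly above or below the wild-type pair, and as still where they differ by less than 0.5. Of the 4317 genes, 216 moved up in cebp1-/- (2.58% of all genes tested) and 733 moved down (29.0%). In cebpb-/- 1109 moved up (23.8%) and 328 moved down (10.4%). Moved in both and in opposite directions were 395 genes, and moved in both in 1 direction were 47. Another 226 moved in cebp1-/- alone and 526 in cebpb-/- alone, and 3123 fell in none of these sets. After scaling on genes of at least 50 TPM these were 374, 53, 243 and 499. These sets are descriptions of size, and a gene that moved in 1 mutant alone is called different between mutants only where the difference of changes passed the test.

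**Figure D2:**
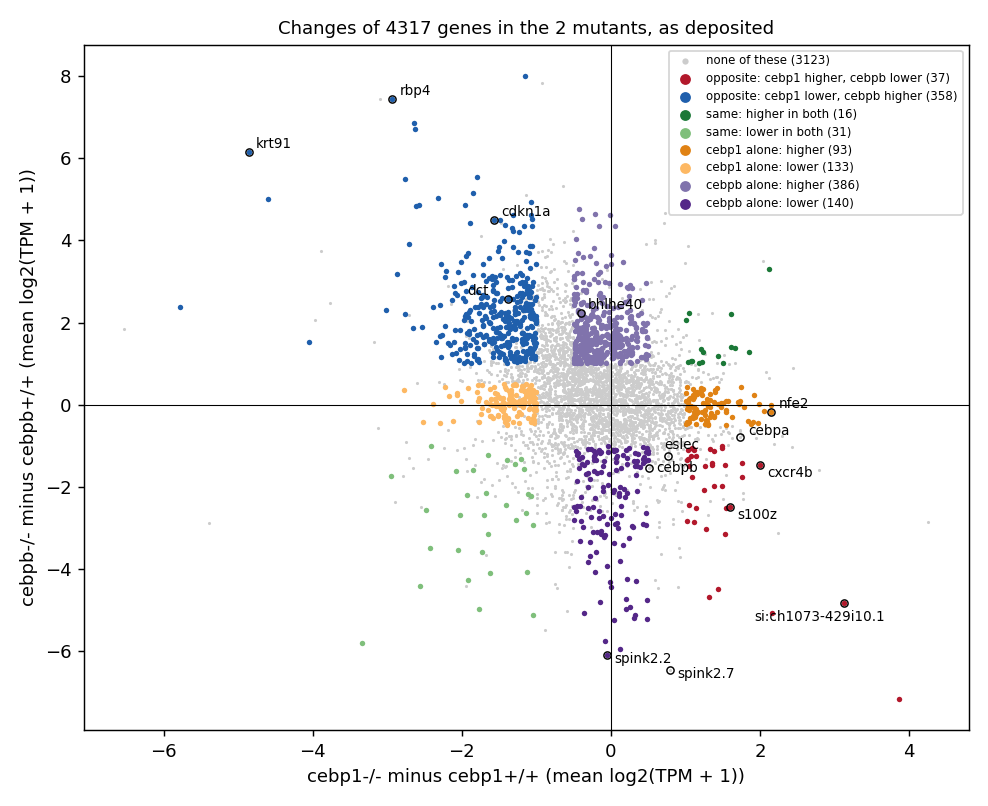
Change in cebp1-/- (horizontal) against change in cebpb-/- (vertical), as differences of mean log2(TPM + 1) as deposited, for 4317 genes (points), coloured by set with the number in each; 14 genes named in the text are ringed and labelled. The upper left holds 358 genes that moved down in cebp1-/- and up in cebpb-/-, and the lower right holds 37 that moved the other way.

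Genes that moved up in cebp1-/- and down in cebpb-/- numbered 37 (0.857% of the 4317, against 0.494% of all genes tested). Of these, 30 stayed after scaling on genes of at least 50 TPM, and the difference of changes passed the test for 19. A group below 10 TPM was present for 13 of them. Cxcr4b, a receptor for the chemokine Cxcl12 that guides leukocyte migration and retention, had 195 and 115 TPM in cebp1+/+, 702 and 512 in cebp1-/-, 2713 and 2581 in cebpb+/+ and 1112 and 833 in cebpb-/-. Each mutant pair stood clear of its wild type, on opposite sides. The changes were 1.997 and -1.46, and the difference of changes was 3.46 (SE 0.40, limma adjusted p = 0.0116), called in 5 of the 8 fits with a library left out. The study uses this gene as a marker of mature eosinophils.

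S100z, a small calcium-binding protein of the S100 family, had 27.7 and 29.0 TPM in wild type against 88.9 and 85.8 in cebp1-/-, and 105 and 171 in wild type against 16.8 and 31.5 in cebpb-/-. Its difference, 4.08 (SE 0.58, limma adjusted p = 0.0152), came with no overlap in either table. Si:ch1073-429i10.1, a gene without a family name in the tables, had 17.7 and 27.6 TPM in cebp1+/+, 207 and 194 in cebp1-/-, 72.0 and 154 in cebpb+/+ and 10.8 and 0.193 in cebpb-/-. One cebpb-/- library was near 0 and the other at 10.8 TPM, so the size of its difference, 7.95, depends on that pair. LOC100334443 (sb:cb81 in the RefSeq assembly GRCz12tu) had 63.6 and 41.5 TPM in wild type against 227 and 136 in cebp1-/-, and 340.0 and 254 in wild type against 239.6 and 30.9 in cebpb-/-. Its 2 cebpb-/- libraries differed widely, and its difference of changes, 3.51 (SE 1.13, limma adjusted p = 0.11), did not pass the test.

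Further genes on the same side follow, and those of this paragraph and the next were picked out after their values had been seen, apart from h1fx and ncf1. LOC103911970 had 1.66 and 0.515 TPM in cebp1+/+, 35.3 and 22.7 in cebp1-/-, 176 and 116 in cebpb+/+ and 0 and 0 in cebpb-/-. It was listed at 0 in both cebpb-/- libraries, so no fold is given. H1fx, a linker histone (h1-10 in RefSeq), had 674 and 536 TPM in wild type against 1394 and 1081 in cebp1-/-, and 797 and 958 in wild type against 329.7 and 373 in cebpb-/-, with a difference of changes of 2.34 (SE 0.29, limma adjusted p = 0.0116). Si:dkey-262k9.4 (fxyd5 in RefSeq, a regulator of the sodium pump) had 127 and 95.6 TPM in wild type against 328 and 245 in cebp1-/-, and 519 and 496 in wild type against 174 and 202 in cebpb-/-. Its 2 changes were of nearly equal size, 1.35 and -1.43, with a difference of 2.79 (limma adjusted p = 0.0116).

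Parvg, a leukocyte parvin that links integrins to actin, had 151 and 157 TPM in wild type against 508 and 393 in cebp1-/-, and 323 and 326 in wild type against 71.2 and 191 in cebpb-/-, a difference of 3.001 (SE 0.58, limma adjusted p = 0.0332). Fli1b, an Ets transcription factor, had changes of 1.39 and -1.13 and a difference of 2.52 (limma adjusted p = 0.0332). Gmfg, which prunes branched actin in leukocytes, had changes of 1.12 and -1.10 and a difference of 2.22 (limma adjusted p = 0.0323). Unc13d, needed for the release of lytic and secretory granules in mammals, had changes of 1.49 and -1.01 and a difference of 2.50 (limma adjusted p = 0.0499). Ncf1, the p47phox subunit of the phagocyte NADPH oxidase, had changes of 1.09 and -1.05, and its difference of 2.14 (limma adjusted p = 0.0754) did not pass the test. Each of these 5 genes had groups that did not overlap in either table.

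**Figure D3:**
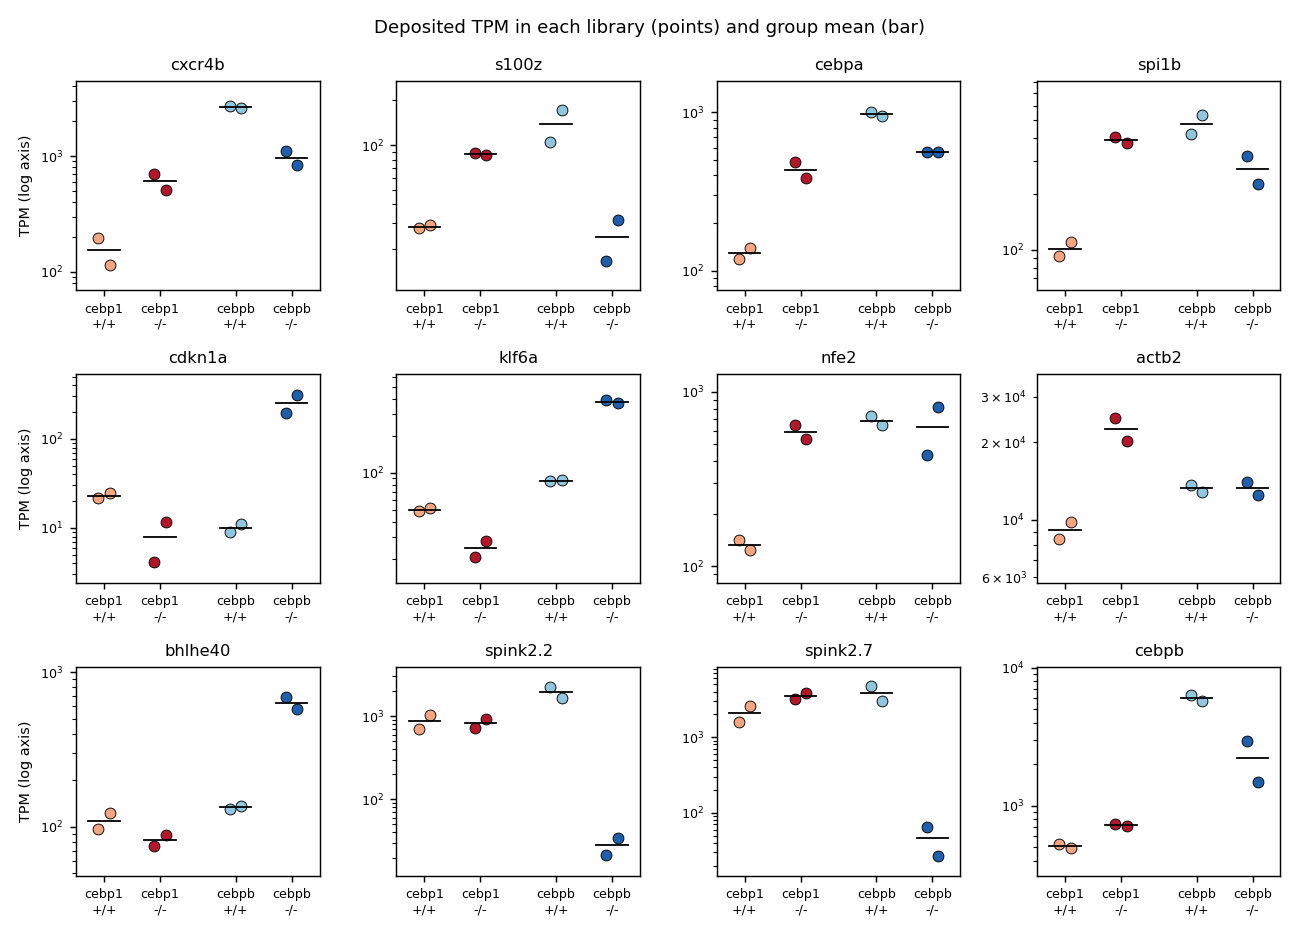
Deposited TPM (vertical, log axis) of 12 genes in the 8 libraries (points) with the mean of each group (bars). Cxcr4b, s100z, cebpa and spi1b are higher in cebp1-/- and lower in cebpb-/- than in the matching wild type; cdkn1a and klf6a are the reverse; nfe2 and actb2 differ in the cebp1 table, and bhlhe40, spink2.2 and spink2.7 chiefly in the cebpb table.

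Transcription factors of the lineage lay on both sides. Of 42 genes of a list of C/EBP and lineage factors, 21 had at least 10 TPM in each table, with 5 positive and 2 negative calls (23.8% and 9.52%) and a median difference of changes of 0.46, against -0.56 over all 4317 genes. In sign, 10 were higher in cebp1-/- and lower in cebpb-/-, 7 were the reverse and 4 were higher in both. With scaling on genes of at least 50 TPM and of at least 1 TPM its median was 0.69 and 2.02, against -0.34 and 0.99 over all 4317 genes. Both scalings raise most differences, so a positive median that stays positive is no check. Cebpa, the C/EBP factor required for granulocyte and monocyte fates in mammals, had 118 and 139.8 TPM in cebp1+/+, 483 and 383 in cebp1-/-, 1012 and 949 in cebpb+/+ and 563 and 566 in cebpb-/-. Its cebp1 change of 1.74 was among the 6 cebp1 calls (limma adjusted p = 0.048), all of which were lost with scaling on genes of at least 50 TPM, and its cebpb change was -0.79 (limma adjusted p = 0.0521). Together these gave a difference of 2.53 (SE 0.28, limma adjusted p = 0.0116).

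Spi1b (Pu.1), an Ets factor of myeloid cells, had 92.7 and 110.2 TPM in cebp1+/+, 406 and 376 in cebp1-/-, 423 and 533 in cebpb+/+ and 319.8 and 227 in cebpb-/-. All 4 mutant libraries stood clear of their wild types, and the difference of changes was 2.75 (SE 0.35, limma adjusted p = 0.0117). Nfe2, a basic leucine zipper factor of megakaryocytes and erythroid cells, had 141 and 123 TPM in cebp1+/+, 645 and 535 in cebp1-/-, 723 and 643 in cebpb+/+ and 437 and 824 in cebpb-/-. It differed in the cebp1 table, while the cebpb-/- libraries lay on both sides of their wild types, and the difference of changes was 2.33 (SE 0.42, limma adjusted p = 0.0278). Gata2a, a zinc finger factor of eosinophils and progenitors, had 185 and 148 TPM in cebp1+/+, 286 and 301 in cebp1-/-, 539.6 and 651 in cebpb+/+ and 599.8 and 624 in cebpb-/-. It was higher in cebp1-/-, the cebpb groups overlapped, and its difference of 0.78 (SE 0.28, limma adjusted p = 0.147) did not pass the test.

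Klf6a, a zinc finger factor of the immediate-early response, lay on the other side, with 49.0 and 51.3 TPM in cebp1+/+, 20.6 and 27.9 in cebp1-/-, 85.0 and 87.5 in cebpb+/+ and 391 and 365 in cebpb-/-. The cebpb-/- pair was far above its wild type (limma adjusted p = 0.0143) and the cebp1-/- pair was below its own. Klf6a had a difference of -3.15 (SE 0.40, limma adjusted p = 0.0121). Id1, an inhibitor of basic helix-loop-helix factors, was the other negative call of the list, with changes of -1.60 and 0.97 and a difference of -2.58 (limma adjusted p = 0.045). Cebpd, another C/EBP factor, had 58.3 and 75.1 TPM in cebp1+/+, 15.7 and 20.7 in cebp1-/-, 62.2 and 153 in cebpb+/+ and 387 and 120.2 in cebpb-/-. Its difference of -2.95 (limma adjusted p = 0.0859) did not pass the test, and its cebpb groups overlapped.

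Among products of eosinophils, positive calls outnumbered negative ones. A list of eosinophil surface, signalling and secretory genes was chosen with earlier results of these data known. Of its 35 genes, 28 were in the set, with 10 positive and 3 negative calls and a median of 1.33. The calls were 35.7% and 10.7%, against 2.27% and 6.62% of the 4317. Among the 875 genes of at least 50 TPM they were 8.46% and 8.23%. In sign, 14 of 28 were higher in cebp1-/- and lower in cebpb-/-, 4 the reverse, 6 higher in both and 4 lower in both. The 3 negative calls are not among the genes described next. Si:dkey-77g12.1, named spink2.2 in RefSeq, encodes a Kazal-type serine protease inhibitor and had 701 and 1030.1 TPM in cebp1+/+, 713 and 933 in cebp1-/-, 2206 and 1671 in cebpb+/+ and 21.3 and 34.5 in cebpb-/-. The cebp1 groups overlapped, whereas both cebpb-/- libraries were far below both wild types. The changes were -0.06 and -6.09, the second called (limma adjusted p = 0.000249). The difference of changes was 6.03 (SE 0.43, limma adjusted p = 0.00189), called in 7 of the 8 fits with a library left out.

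Si:dkey-203a12.2, named spink2.7 in RefSeq, is a second gene of that inhibitor family. It had 1586 and 2597 TPM in cebp1+/+, 3199 and 3869 in cebp1-/-, 4667 and 2979 in cebpb+/+ and 65.0 and 26.6 in cebpb-/-. It was higher in cebp1-/- by 0.79 without overlap, and its difference of changes was 7.24 (SE 0.59, limma adjusted p = 0.0034). The 2 inhibitor genes thus fell in cebpb-/- by similar amounts (-6.09 and -6.45). Cd59, a surface inhibitor of the complement attack complex, had 182 and 264 TPM in wild type against 400.0 and 382 in cebp1-/-, and 817 and 877 in wild type against 134 and 93.5 in cebpb-/-. Its groups did not overlap in either table, and the difference of changes was 3.74 (SE 0.37, limma adjusted p = 0.00999).

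Pdia2, a disulfide isomerase of the endoplasmic reticulum, had 705 and 555 TPM in wild type against 1682 and 1410.3 in cebp1-/-, and 1638 and 1171 in wild type against 935 and 1044 in cebpb-/-, and its difference of changes was 1.79 (SE 0.30, limma adjusted p = 0.0237). Agr2, of the same enzyme family, had 835 and 738 TPM in cebp1+/+, 1374 and 1314 in cebp1-/-, 3359 and 2905 in cebpb+/+ and 1596 and 2779 in cebpb-/-. Its cebpb-/- libraries were both below both wild types, and its difference of 1.34 (SE 0.34, limma adjusted p = 0.0644) did not pass the test. Fcer1gl, an Fc receptor gamma chain gene, had 189.6 and 260.1 TPM in cebp1+/+, 291 and 338 in cebp1-/-, 1709 and 1988 in cebpb+/+ and 1396 and 2142 in cebpb-/-. The cebpb groups overlapped, and its difference was 0.59 (SE 0.35, limma adjusted p = 0.337), not past the test.

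Genes that moved down in cebp1-/- and up in cebpb-/- numbered 358 (8.29% of the 4317, below the 9.13% of all genes tested). After scaling on genes of at least 50 TPM 298 stayed in the set, and with scaling on genes of at least 1 TPM it held 27 genes. The difference of changes passed the test for 189, and 237 of the 358 had a group below 10 TPM. The 4 genes of at least 50 TPM with the largest differences include genes known from skin, liver and glia. Krt91, a keratin of skin, had 53.5 and 196 TPM in cebp1+/+, 2.16 and 3.005 in cebp1-/-, 0.103 and 0.885 in cebpb+/+ and 39.1 and 258 in cebpb-/-. Rbp4, the plasma retinol carrier made in the liver, had 81.4 and 228 TPM in cebp1+/+, 6.14 and 43.8 in cebp1-/-, 0.180 and 0 in cebpb+/+ and 76.4 and 465 in cebpb-/-. Both had values from near 0 to above 200 TPM, and their differences of changes were -11.00 and -10.39. Both reached the limit of 10 TPM in the cebpb table only through cebpb-/-, so these sizes are a description.

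Fabp7a, a fatty acid-binding protein of glia, had 497 and 595 TPM in cebp1+/+, 129 and 63.3 in cebp1-/-, 0 and 9.05 in cebpb+/+ and 54.0 and 154 in cebpb-/-. Si:dkey-251i10.2, which has no family name in the tables, had 994 and 301 TPM in cebp1+/+, 58.1 and 129 in cebp1-/-, 1.89 and 0 in cebpb+/+ and 165 and 234 in cebpb-/-. Their differences of changes were -7.44 and -9.51, given without a test because both were admitted through cebpb-/- in the same way. For these genes the 2 wild types lay far apart in level, high in the cebp1 table and near 0 in the cebpb table.

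Markers of skin and pigment cells moved as sets. All 11 keratinocyte markers with at least 10 TPM in each table (of 30 listed) were lower in cebp1-/- and higher in cebpb-/-, 8 of them called, with a median difference of changes of -6.04. Krt91 is among the 8 and had groups below 10 TPM, as 128 of all 286 negative calls had at least 1. Such a gene had to differ in that table to be admitted, so the number called and the size of the median are descriptions. The summed TPM of the 28 genes in the tables was 1450 and 3693 in cebp1+/+, 435 and 597 in cebp1-/-, 1494 and 2556 in cebpb+/+ and 6458 and 7636 in cebpb-/-. Epcam and krt15 were at 0 in every library. S100a10b, an annexin partner of the S100 family, had 294 and 471 TPM in wild type against 139.7 and 147 in cebp1-/-, and 664 and 823 in wild type against 3129 and 2790.5 in cebpb-/-, with a difference of -3.37 (SE 0.34, limma adjusted p = 0.0116). Icn, another S100 protein, had 664 and 1111 TPM in wild type against 192 and 316 in cebp1-/-, and 514 and 668 in wild type against 1695 and 2119 in cebpb-/-, with a difference of -3.49 (SE 0.45, limma adjusted p = 0.0122).

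All 13 melanophore and xanthophore markers in the set (of 19) were likewise lower in cebp1-/- and higher in cebpb-/-, with 7 calls and a median of -3.13. Their summed TPM was 5199 and 6340 in cebp1+/+, 2097 and 3227 in cebp1-/-, 5032 and 5808 in cebpb+/+ and 28283 and 17650.3 in cebpb-/-, and no marker was at 0 in every library. Dct, dopachrome tautomerase of melanin synthesis, had 368 and 555 TPM in wild type against 139.5 and 215 in cebp1-/-, and 341 and 468 in wild type against 3042 and 1863 in cebpb-/-. Tyrp1b, a second melanin enzyme, had 1777 and 2547 TPM in wild type against 859.8 and 1305 in cebp1-/-, and 3088 and 3477 in wild type against 16552 and 10749.8 in cebpb-/-. Their differences of changes were -3.95 (SE 0.47, limma adjusted p = 0.0116) and -3.03 (SE 0.39, limma adjusted p = 0.0121), and that of pmela, a fibril protein of melanosomes, was -3.05 (SE 0.42, limma adjusted p = 0.0149). The sign of both lists was the same under all 3 scalings.

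Liver markers ran the same way, from 905 and 539 summed TPM in cebp1+/+ to 132 and 201 in cebp1-/-, and from 9.09 and 12.3 in cebpb+/+ to 318 and 472 in cebpb-/-. Nervous system markers summed to 1058 and 1761 against 515 and 353, and to 44.5 and 139 against 137 and 337, with the cebpb groups overlapping. Neutrophil markers summed to 198 to 276 TPM in the cebp1 table and 505 to 594 in the cebpb table, and macrophage markers to 178 to 223 and 229 to 853. Erythroid markers summed to 344 and 344 in cebp1+/+, 456 and 530.1 in cebp1-/-, 1288 and 2123 in cebpb+/+ and 754 and 1164 in cebpb-/-. Muscle markers summed to 202.96 to 1430.4 TPM, highest in cebp1-/- replicate 1, and pancreas and gut markers to 0 to 178. In a sorted population, fewer cells of a type and less RNA per cell cannot be told apart, and the part of these other cells in the remaining differences was not tested.

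**Figure D4:**
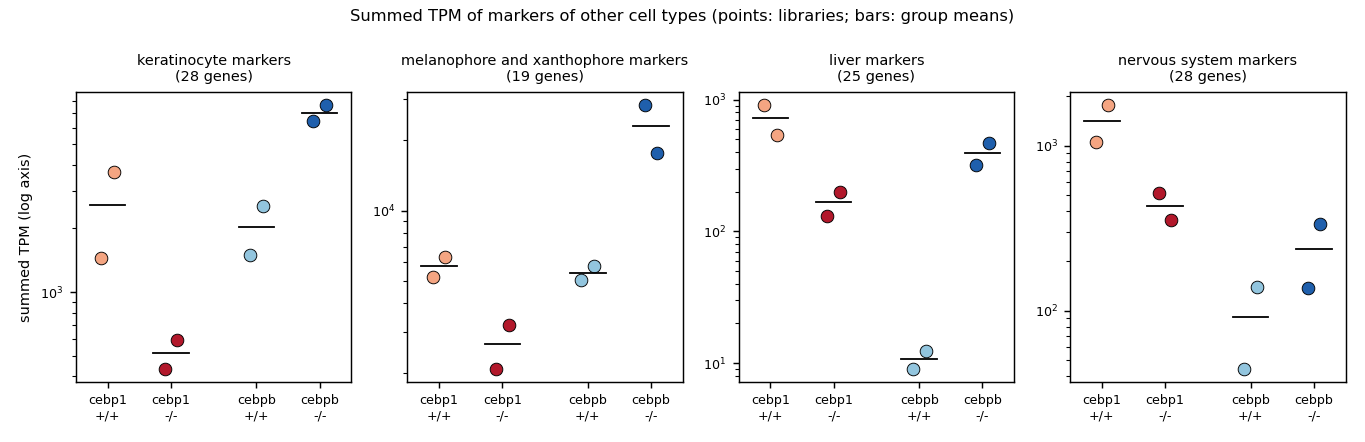
Summed TPM (vertical, log axis) of the markers of 4 other cell types in the 8 libraries (points) with group means (bars), for all listed markers found in the tables. Keratinocyte, pigment cell and liver sums are lower in both cebp1-/- libraries and higher in both cebpb-/- libraries than in the matching wild types.

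Not every gene on that side was a marker of another tissue. Cdkn1a, the p21 inhibitor of cyclin-dependent kinases, had 21.5 and 24.8 TPM in cebp1+/+, 4.19 and 11.6 in cebp1-/-, 8.98 and 11.1 in cebpb+/+ and 197 and 309.6 in cebpb-/-. The cebpb-/- pair was above all other libraries and the cebp1-/- pair was below its own wild type. The changes were -1.57 and 4.50, with a difference of -6.07, given without a test since cebp1-/- averaged below 10 TPM. Among 24 genes of growth arrest, survival and death no other gene was called. The call of cdkn1a (4.17%) is not read as a result for that list. The median of the 24 genes, -1.05, turned positive, at 0.52, with scaling on genes of at least 1 TPM. Bcl2a, a guard against cell death, had a difference of -2.88, and baxa, its death-promoting relative, one of -3.18. Both are given without a test, since cebpb+/+ averaged below 10 TPM for bcl2a and cebp1-/- did for baxa.

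Some immediate-early genes were on that side too. Of 12 genes of the AP-1 and immediate-early list, 7 were lower in cebp1-/- and higher in cebpb-/-, 4 were higher in both and 1 was the reverse. By the test 4 were called negative (33.3%, against 6.62% of the 4317) and none positive, and the median difference was -1.19. With scaling on genes of at least 1 TPM the median was 0.39. Jun, an AP-1 subunit, had 26.4 and 43.4 TPM in cebp1+/+, 15.5 and 8.43 in cebp1-/-, 329 and 188 in cebpb+/+ and 1048 and 809 in cebpb-/-. Dusp1, a phosphatase that ends MAP kinase signalling, had 59.3 and 60.3 TPM in cebp1+/+, 26.8 and 38.8 in cebp1-/-, 549 and 599.9 in cebpb+/+ and 2007 and 1687 in cebpb-/-. Both were higher in both cebpb-/- libraries and lower in both cebp1-/- libraries, with differences of changes of -3.36 (SE 0.60, limma adjusted p = 0.0273) and -2.55 (SE 0.35, limma adjusted p = 0.0148). The other negative calls of the list were klf6a, described above, and zfp36l1b, which marks AU-rich messages for decay, with a difference of -2.65 (limma adjusted p = 0.0412).

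In the NF-kappaB and inflammatory list 0 of 12 genes passed limma's test, with 1 positive and 6 negative at an unadjusted p below 0.05, and none was called with separate weights for the tables. Tnfaip3, an ubiquitin-editing brake on NF-kappaB, had 24.6 and 17.9 TPM in wild type against 11.9 and 16.4 in cebp1-/-, and 98.1 and 78.8 in wild type against 409 and 186 in cebpb-/-, with a difference of -2.19 (SE 0.63, limma adjusted p = 0.0847). Socs3b, a brake on cytokine signalling, had 12.6 and 9.45 TPM in wild type against 8.70 and 13.1 in cebp1-/-, and 29.9 and 35.5 in wild type against 208 and 99.6 in cebpb-/-. Its cebp1 change was near 0 and its difference was -2.13 (SE 0.69, limma adjusted p = 0.11).

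Other named genes of that side have varied roles. Ctsla, the lysosomal protease cathepsin L, had 181 and 213 TPM in wild type against 70.0 and 80.5 in cebp1-/-, and 229 and 278 in wild type against 1014 and 436 in cebpb-/-, with a difference of -2.77 (SE 0.53, limma adjusted p = 0.0323). Lmnb2, a lamin of the nuclear envelope, had 54.0 and 42.4 TPM in wild type against 11.8 and 13.4 in cebp1-/-, and 19.0 and 15.9 in wild type against 136 and 198 in cebpb-/-. Its difference of changes was -5.01 (SE 0.54, limma adjusted p = 0.0116). Cirbpa, a cold-inducible RNA-binding protein, had 287 and 250.2 TPM in wild type against 103 and 96.8 in cebp1-/-, and 518 and 655 in wild type against 1327 and 1239 in cebpb-/-, with a difference of -2.56 (SE 0.28, limma adjusted p = 0.0116). Ywhaqb, a 14-3-3 protein, had 272 and 299 TPM in wild type against 182 and 161 in cebp1-/-, and 354 and 544 in wild type against 1558 and 1461 in cebpb-/-, with a difference of -2.51 (SE 0.33, limma adjusted p = 0.0127). Lmnb2, cirbpa and ywhaqb are on the list of adult eosinophil progenitor markers, and none of the 4 had overlapping groups.

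Genes that moved in cebp1-/- alone were 93 upward (2.15% of the 4317, against 0.971% of all genes tested) and 133 downward (3.08%, against 5.12%). The difference of changes passed for 9 and 3. Beside nfe2, the upward genes included tnfaip8l2a, a dampener of immune receptor signalling, with 84.3 and 83.9 TPM in wild type against 304 and 202 in cebp1-/-, and 267 and 296 in wild type against 214 and 308 in cebpb-/-. Osmr, the oncostatin M receptor, had 108 and 121 TPM in wild type against 451 and 308 in cebp1-/-, and 199 and 199.9 in wild type against 209 and 205 in cebpb-/-. Gsr, glutathione reductase, had 27.5 and 27.1 TPM in wild type against 97.1 and 88.7 in cebp1-/-, and 149 and 119 in wild type against 130.3 and 156 in cebpb-/-. The difference of changes was 1.68 (limma adjusted p = 0.0559) for tnfaip8l2a, 1.65 (limma adjusted p = 0.0413) for osmr and 1.63 (limma adjusted p = 0.0575) for gsr, so that only osmr passed. With scaling on genes of at least 50 TPM tnfaip8l2a passed too (limma adjusted p = 0.0444). With separate weights for the tables, or with a replicate block, none of these genes passed, osmr included (limma adjusted p = 0.0998 and 0.0981). Xbp1, a transcription factor of secretory cells that eosinophils need in mice, had 243 and 266 TPM in wild type against 525 and 518 in cebp1-/-, and 3626 and 3963 in wild type against 3704 and 4252 in cebpb-/-. Its difference was 0.97 (SE 0.20, limma adjusted p = 0.0413). With scaling on genes of at least 50 TPM its cebp1 change was 0.95, and it left the set. The difference of xbp1 did not pass with separate weights for the tables (limma adjusted p = 0.0861) or with a replicate block (limma adjusted p = 0.0857).

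Among the downward genes, hmgb2b, a chromatin protein of dividing cells, had 443 and 453 TPM in cebp1+/+, 94.0 and 113 in cebp1-/-, 109 and 110.5 in cebpb+/+ and 73.3 and 94.3 in cebpb-/-. The cebp1 change was -2.11 (limma adjusted p = 0.048), the cebpb change was -0.40, and the difference of -1.72 (SE 0.35, limma adjusted p = 0.0384) was the only call among 17 genes of S and G2/M phase. It did not pass with scaling on genes of at least 50 TPM (limma adjusted p = 0.0596), with separate weights for the tables (0.0731) or with a replicate block (0.0886), and under that scaling the gene left the set. With scaling on genes of at least 1 TPM its difference was -0.11. Hmgn2, a nucleosome-binding protein, had 1682 and 1449 TPM in wild type against 508 and 597 in cebp1-/-, and 178 and 163 in wild type against 116 and 324 in cebpb-/-. Pcna, the sliding clamp of DNA replication, had 209 and 203.3 TPM in wild type against 83.7 and 53.0 in cebp1-/-, and 53.5 and 55.6 in wild type against 99.7 and 30.1 in cebpb-/-. The cebpb groups of both overlapped, and their differences of -1.68 (limma adjusted p = 0.128) and -1.63 (limma adjusted p = 0.224) did not pass. Trpm1b, a cation channel of melanophores and retina, and the mitochondrial transfer RNAs trnR and trnM were the other named genes, with differences of -2.67 (limma adjusted p = 0.217), -1.74 (limma adjusted p = 0.101) and -1.65 (limma adjusted p = 0.0827).

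Genes that moved in cebpb-/- alone were 386 upward (8.94% of the 4317, against 6.79% of all genes tested) and 140 downward (3.24%, against 3.89%). The test of the difference was passed by 26 and 16. Bhlhe40, a basic helix-loop-helix repressor with roles in the clock and in immune cells, had 97.5 and 122 TPM in cebp1+/+, 75.6 and 89.0 in cebp1-/-, 131 and 137 in cebpb+/+ and 691 and 579.7 in cebpb-/-. The cebpb-/- pair was clear of all 6 other libraries, and the difference of changes was -2.64 (SE 0.34, limma adjusted p = 0.0125). Riok3, an atypical protein kinase, had 38.3 and 55.03 TPM in wild type against 39.4 and 75.9 in cebp1-/-, and 71.2 and 92.3 in wild type against 761 and 499.96 in cebpb-/-, with a difference of -2.66 (SE 0.56, limma adjusted p = 0.0414). Alas1, the first enzyme of heme synthesis, had 78.3 and 77.5 TPM in wild type against 53.5 and 72.8 in cebp1-/-, and 128 and 139 in wild type against 685 and 382 in cebpb-/-, with a difference of -2.24 (SE 0.46, limma adjusted p = 0.0398). Si:ch211-217k17.7 (ccdc86 in RefSeq) had 98.2 and 57.0 TPM in wild type against 55.7 and 61.8 in cebp1-/-, and 34.2 and 15.2 in wild type against 55.7 and 117 in cebpb-/-, and its difference of -2.12 (limma adjusted p = 0.132) did not pass. Eif4a1a, an RNA helicase of translation initiation, had 294 and 170.2 TPM in wild type against 159 and 171 in cebp1-/-, and 348 and 362 in wild type against 1092 and 1379 in cebpb-/-, with a difference of -2.22 (SE 0.39, limma adjusted p = 0.0258). With scaling on genes of at least 50 TPM its cebp1 change was -0.52, and it left the set. With separate weights for the tables riok3, alas1 and eif4a1a did not pass (limma adjusted p = 0.081, 0.0549 and 0.0582). The same held with a replicate block (limma adjusted p = 0.0716, 0.0847 and 0.0648). Riok3 also did not pass with scaling on genes of at least 50 TPM (limma adjusted p = 0.0503). Bhlhe40 passed in all 3 of these settings.

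Downward, beside spink2.2, ssr1, a subunit of the translocon-associated complex, had 138 and 98.7 TPM in cebp1+/+, 148 and 178 in cebp1-/-, 315 and 242 in cebpb+/+ and 62.0 and 30.8 in cebpb-/-. The cebp1 change was 0.47 without overlap, the cebpb change was -2.63, and the difference of changes was 3.11 (SE 0.53, limma adjusted p = 0.0246). Lgals3b, a galectin, had 121 and 72.6 TPM in wild type against 121 and 114 in cebp1-/-, and 115 and 202.7 in wild type against 0 and 18.5 in cebpb-/-. Sh2d1aa, a signalling adaptor of lymphoid receptors in mammals, had 64.8 and 78.4 TPM in wild type against 81.3 and 101 in cebp1-/-, and 114 and 107 in wild type against 31.7 and 0 in cebpb-/-. Each had 1 cebpb-/- library listed at 0. The difference of lgals3b, 5.44, is given without a test since cebpb-/- averaged below 10 TPM. That of sh2d1aa, 4.63 (SE 1.82, limma adjusted p = 0.172), did not pass the test.

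Genes that moved alike were few. Higher in both mutants were 16 genes (0.371% of the 4317, against 0.217% of all genes tested), 5 of them after scaling on genes of at least 50 TPM. Lower in both were 31 (0.718%, against 2.51%), all 31 of them kept. No protein-coding gene of at least 50 TPM in both tables kept this set under scaling, so the genes given here were picked after their values were seen. Ncaldb, a neuronal calcium sensor, had 38.9 and 45.3 TPM in wild type against 104 and 77.8 in cebp1-/-, and 50.3 and 68.4 in wild type against 122 and 127 in cebpb-/-. Its changes were 1.08 and 1.08 as deposited. Ilk, integrin-linked kinase and a partner of parvins, had 17.8 and 21.3 TPM in wild type against 68.5 and 47.9 in cebp1-/-, and 44.6 and 29.1 in wild type against 56.3 and 96.6 in cebpb-/-, with changes of 1.51 and 1.01. Scaling on genes of at least 50 TPM lowered cebpb changes by about 0.31, and neither ncaldb nor ilk stayed in the set. Lower in both was sla2, a Src-like adaptor, with 24.7 and 17.004 TPM in wild type against 2.71 and 3.03 in cebp1-/-, and 142 and 94.2 in wild type against 33.0 and 10.4 in cebpb-/-, and its changes were -2.48 and -2.56. The ribosomal RNA gene zgc:158463 was also lower in both, with changes of -1.68 and -2.16. Of the 47 genes 1 had a called difference of changes, lactb2, with changes of -1.04 and -5.13, and in both tables it reached 10 TPM only through the wild types.

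Ribosomal protein genes had a small positive median. Of 95 listed, 75 were in the set, with a median difference of changes of 0.59. With scaling on genes of at least 50 TPM and of at least 1 TPM it was 0.82 and 2.21, but both scalings raise most differences. In limma's test 7 were called positive (9.33%) and 0 negative (41 and 1 at an unadjusted p below 0.05). When the tables had separate weights, 1 gene of the list was called. As deposited, the median cebp1 change was 0.03 and the median cebpb change -0.50. In sign, 38 of the 75 were higher in cebp1-/- and lower in cebpb-/-, while 1 was the reverse and 33 were lower in both. With scaling on genes of at least 50 TPM the medians were -0.05 and -0.81. The cebp1 sign thus turned, and the split between 38 and 33 holds only as deposited. Rps3, of the small subunit, had 2791 and 2522 TPM in cebp1+/+, 2953 and 3311 in cebp1-/-, 1122 and 1113 in cebpb+/+ and 580.1 and 505 in cebpb-/-, which gives a difference of 1.28 (SE 0.20, limma adjusted p = 0.0198). Rplp0, of the stalk, had 7173 and 5916 TPM in wild type against 9776 and 8760.4 in cebp1-/-, and 2644 and 2166 in wild type against 1671 and 1582 in cebpb-/-, with a difference of 1.06 (SE 0.21, limma adjusted p = 0.0336). Rpl4 had a difference of 0.96 (SE 0.19, limma adjusted p = 0.0355). Rps8a, rpl38 and rps26, which the study names, had differences of 0.30 to 0.59, and none passed (limma adjusted p 0.0984 to 0.502). These genes are among the most abundant, where the median of all genes was also positive. Of the 875 genes of at least 50 TPM, 8.46% were called positive.

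Some elongation factors also had positive differences. Eef1a1l1, which brings transfer RNA to the ribosome, had 8919.7 and 7429 TPM in wild type against 16036 and 13292 in cebp1-/-, and 6479.9 and 5885 in wild type against 4162 and 4653 in cebpb-/-, with a difference of 1.33 (SE 0.19, limma adjusted p = 0.0157). Eef1g, of the exchange complex, had a difference of 1.27 (SE 0.22, limma adjusted p = 0.0252). Over the 53 genes of the translation list, 4 were called positive and 2 negative (7.55% and 3.77%, against 2.27% and 6.62% of the 4317), with a median of 0.42. The positive share was below the 8.46% of the 875 genes of at least 50 TPM. Separate weights for the tables gave 1 and 0 calls for this list. Eif5a, a factor with the amino acid hypusine, had a difference of 0.63 (limma adjusted p = 0.147), rsl24d1, a ribosome assembly factor, one of 0.78 (limma adjusted p = 0.123) and tpt1, an abundant growth-linked protein, one of 0.37 (limma adjusted p = 0.27), none past the test.

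Many secretory pathway genes were higher in both mutants as deposited. Of 61 genes that fold and process proteins in the endoplasmic reticulum, 30 were higher in both mutants, against 785 of the 4317, 13 were higher in cebp1-/- and lower in cebpb-/-, 16 were the reverse and 2 were lower in both. The median changes were 0.28 and 0.43 as deposited, and 0.20 and 0.12 with scaling on genes of at least 50 TPM. That scaling also lowered the number of all 4317 genes higher in both from 785 to 507. By the test 3 were called, all positive (4.92%), and the median difference of -0.26 became -0.03 with scaling on genes of at least 50 TPM and 1.34 with scaling on genes of at least 1 TPM. Ssr2, a partner of ssr1, had 619 and 586 TPM in wild type against 1109 and 1159 in cebp1-/-, and 1093 and 1012 in wild type against 695 and 847 in cebpb-/-, with a difference of 1.37 (SE 0.22, limma adjusted p = 0.0234). Actin genes were mixed, with 4 positive and 2 negative calls among 37 (10.8% and 5.41%, the second below the share of all 4317) and a median of 0.13. Pfn1, profilin, which loads actin monomers, had 2518 and 2765 TPM in cebp1+/+, 4559 and 4782 in cebp1-/-, 14777 and 14148 in cebpb+/+ and 8480.2 and 9741 in cebpb-/-. The difference of changes was 1.49 (SE 0.15, limma adjusted p = 0.0116). Arpc1b, of the Arp2/3 complex of blood cells, had a difference of 1.84 (SE 0.27, limma adjusted p = 0.0159). Proteasome, nuclear oxidative phosphorylation, glycolysis and amino acid lists (36, 75, 14 and 17 genes) had 0 calls each in limma's test, with medians of -0.51, -0.03, 0.21 and 0.31. The proteasome median was -0.28 with scaling on genes of at least 50 TPM and 1.095 with scaling on genes of at least 1 TPM. The oxidative phosphorylation median turned positive with both, at 0.18 and 1.56. Of the 75 oxidative phosphorylation genes 39 were lower in both mutants, against 825 of the 4317. At an unadjusted p below 0.05 they held 0, 3, 3 and 4 positive and 2, 1, 1 and 0 negative genes.

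Stage markers from adult kidney single cells gave medians that differed by stage. They were -0.98 over 132 markers of eosinophil progenitors (EoP), 0.41 over 235 markers of precursor eosinophils (pre.Eos) and -0.21 over 197 markers of mature eosinophils (mat.Eos). Positive and negative calls were 3 and 16 (2.27% and 12.12%), 19 and 7 (8.09% and 2.98%), and 15 and 14 (7.61% and 7.11%). Against 2.27% and 6.62% of all 4317 genes, the positive share of progenitor markers and the negative share of mature markers were at the background. Among the 875 genes of at least 50 TPM, 8.46% were called positive and 8.23% negative. The positive shares of precursor and mature markers were below that 8.46%. With scaling on genes of at least 50 TPM the medians were -0.75, 0.64 and 0.003, so the mature one was no longer negative. With scaling on genes of at least 1 TPM the progenitor median turned to 0.60 and the mature one was 1.34. Their order with the precursor median, then 2.02, was kept. Of the progenitor markers 80 were lower in cebp1-/- and higher in cebpb-/-, and 12 were the reverse. These lists were made by the study on other libraries, and their genes differ in level, which itself went with the difference of changes.

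**Figure D5:**
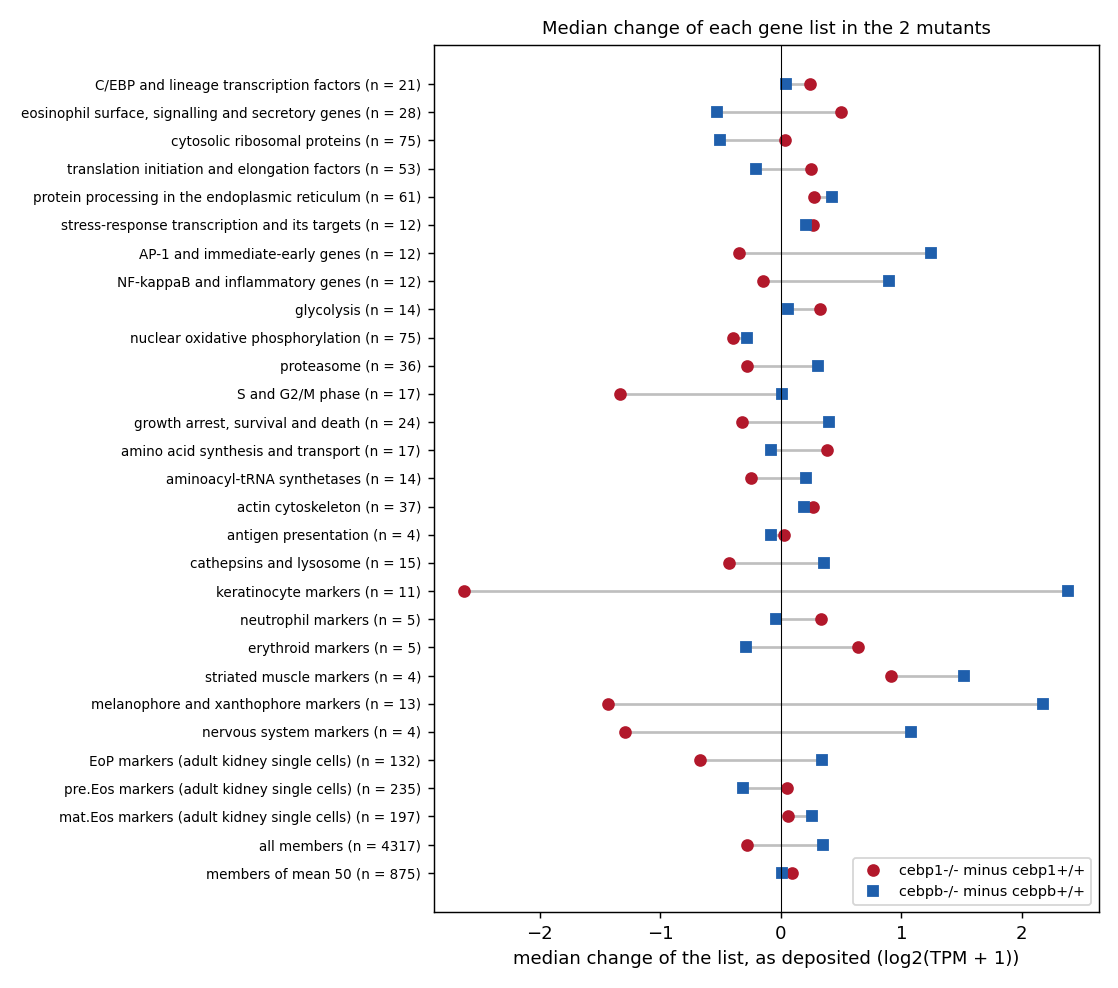
Median change of each gene list in cebp1-/- (circles) and cebpb-/- (squares), as differences of mean log2(TPM + 1) as deposited, for lists with at least 4 genes in the set, and for all 4317 genes and the 875 of at least 50 TPM (n genes in brackets; lines join the 2 medians). Keratinocyte and pigment cell markers lie farthest apart, with circles left and squares right; eosinophil genes and ribosomal proteins lie the other way round.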

How the data were processed

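Reads of the 8 libraries were aligned by the authors with STAR (GRCz11) and assigned to genes with featureCounts. The deposited values are TPM in 2 tables, 1 per mutation (their DESeq2 test ran on counts that were not used here). All 8 columns were used, each matched to its library by name. TPM sum to 1000000 in every library, so the depth is unknown. Tests used limma 3.58.1 (R 4.3.3) on log2(TPM + 1) as deposited, with 4 groups, a mean-variance trend and Benjamini-Hochberg adjustment over the 11536 genes averaging 1 TPM or more in each table, and were checked on simulated data. The p-values rest on 2 pools a group, with the spread of each gene pooled over all 4 groups. Median residual SD was larger for cebpb libraries (0.886) than for cebp1 libraries (0.402). A p-value for either mutation therefore does not measure the spread between its own pools alone. Other scalings used median-of-ratios factors within each table.

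Named genes were the 4 of each set and direction with the largest difference of changes (at least 50 TPM in both tables, set kept under scaling), genes the study names, and up to 3 per list with the smallest p, besides those said to be picked later. The genes, sets and 30 lists were chosen with earlier results of these data known. RefSeq names (GRCz12tu) were found for 4183 of the 4317 genes. Gene sequences and coordinates were not used here.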

Additional observations from a re-analysis of the deposited data

How the results depend on the processing

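Counts are positive and negative calls of the difference of changes, then calls higher and lower in cebp1-/-, then in cebpb-/-, over the 4317 genes (98 and 286, 4 and 2, 315 and 102 as reported). They were 600 and 49, 438 and 1, and 146 and 239 when scaled on genes of at least 1 TPM; 61 and 109, 27 and 9, and 144 and 68 with no filter; 173 and 461, 42 and 26, and 437 and 143 with a filter of 10 TPM; 18 and 53, 0 and 0, and 168 and 40 without the mean-variance trend; and 57 and 176, 168 and 251, and 3 and 6 with array weights per table. The cebp1 calls were 0 and 0 when scaled on genes of at least 50 TPM (cebpb calls 204 and 198) and with a pseudocount of 0.1, 9 and 3 with a pseudocount of 5, and 7 and 2 without mitochondrial and microRNA genes. Where limma called 0 cebp1 genes, 110 to 274 higher and 295 to 511 lower had an unadjusted p below 0.05 in the fits of all 8 libraries. With each table fitted alone, cebp1 calls were 82 and 131 and cebpb calls 0 and 0 (776 and 263 unadjusted). Leaving out 1 library gave 0 to 368 positive and 2 to 685 negative calls of the difference, 0 to 10 and 0 to 4 for cebp1, and 3 to 551 and 3 to 399 for cebpb.

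The replicate numbers did not pair the samples: deviations from group means correlated at 0.0562 for cebp1 and -0.0247 for cebpb. A replicate block gave 25 and 67 calls of the difference (25 and 66 shared with those reported), 0 and 0 for cebp1 and 41 and 26 for cebpb, and 31 of the 52 named calls remained.

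The genes moving up in cebp1-/- and down in cebpb-/- numbered 440 when scaled on genes of at least 1 TPM and 91 with limits of 0.7 and 0.35 in place of 1 and 0.5; the reverse set held 27 and 548 (224 with a pseudocount of 5). Genes moving alike numbered 103, 114 and 31 in these settings, and 51 to 112 without 1 library; genes moving in cebp1-/- alone numbered 556 when scaled on genes of at least 1 TPM, and those in cebpb-/- alone 481 to 807 without 1 library. No named gene that was called changed sign under any setting.

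With 2 libraries a group, unknown depth and unequal spread between tables, single calls depend on how the spread is pooled.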

Other observations

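Some genes outside the groups above also differed between the mutations. Over 12 genes of stress-response transcription, 2 were called, both positive (xbp1 and chac1), with a median difference of changes of -0.22 (1.27 with scaling on genes of at least 1 TPM). Chac1, which degrades glutathione under stress, had 44.9 and 67.4 TPM in wild type against 104 and 118 in cebp1-/-, and 708 and 836 in wild type against 477 and 543 in cebpb-/-, with a difference of 1.59 (SE 0.36, limma adjusted p = 0.0498). Trib3, a pseudokinase of the same response, had 35.1 and 62.7 TPM in wild type against 20.04 and 18.9 in cebp1-/-, and 214 and 287 in wild type against 558 and 406 in cebpb-/-. It lay on the other side of 0, at -2.17 (SE 0.50, limma adjusted p = 0.0509), just outside the threshold.

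Transfer RNA synthetases were divided. Cars (cars1 in RefSeq), for cysteine, had 32.3 and 31.6 TPM in wild type against 12.3 and 19.1 in cebp1-/-, and 10.8 and 16.96 in wild type against 92.8 and 44.1 in cebpb-/-, with a difference of -3.17 (SE 0.72, limma adjusted p = 0.0491), the only call among 14 genes (7.14%). With scaling on genes of at least 50 TPM cars did not pass (limma adjusted p = 0.0552) and gars did (0.0451), so the single call changes gene and direction. Gars (gars1 in RefSeq), for glycine, had 84.6 and 64.6 TPM in wild type against 140.0 and 117 in cebp1-/-, and 74.97 and 120.2 in wild type against 48.7 and 34.9 in cebpb-/-, with a difference of 1.97 (SE 0.50, limma adjusted p = 0.0644). Grnb, a progranulin of lysosomes, had 20.1 and 30.4 TPM in wild type against 11.6 and 20.3 in cebp1-/-, and 11.3 and 9.93 in wild type against 52.6 and 69.9 in cebpb-/-, and its difference was -3.06 (SE 0.67, limma adjusted p = 0.0462). Creg1, a lysosomal glycoprotein listed among erythroid markers, had 112 and 151 TPM in wild type against 233 and 283 in cebp1-/-, and 589 and 560.4 in wild type against 357 and 259.6 in cebpb-/-, with a difference of 1.88 (SE 0.35, limma adjusted p = 0.0319). With separate weights for the tables neither grnb nor creg1 passed (limma adjusted p = 0.0854 and 0.0584). With scaling on genes of at least 50 TPM grnb did not pass either (limma adjusted p = 0.0576). Hbae3, an alpha globin on the erythroid list, ranged from 0 to 834 TPM in the cebpb table. Its difference of 2.46 is given without a test, since both mutants averaged below 10 TPM. Cfl1l, a cofilin on the neutrophil list, had 32.1 and 31.1 TPM in wild type against 1.98 and 0.305 in cebp1-/-, and 12.6 and 23.5 in wild type against 46.9 and 57.5 in cebpb-/-, with a difference of -5.58, given without a test since cebp1-/- averaged below 10 TPM.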
